A study of Rattus norvegicus with 3 samples.

Results

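Respiratory complex I, the NADH:ubiquinone oxidoreductase of the inner mitochondrial membrane, was followed through its nuclear genes in rat tibialis anterior muscle that had been given a perilipin plasmid. The members were every gene whose symbol in the array's annotation begins with Ndufa, Ndufb, Ndufc, Ndufs or Ndufv. They numbered 37 of 14506 measured genes: 34 subunits (all symbols other than Ndufaf, with Ndufa4, Ndufab1 and Ndufs6-ps1 counted among them) and 3 assembly factors (Ndufaf1, Ndufaf3 and Ndufaf4). They came from 41 probe sets that name a single gene; where a gene had 2, the probe set with the higher mean over the arrays stood for it. Another 11 complex I genes of a prepared list of 47, among them Ndufa13, Ndufb1, Ndufc1, Ndufaf2 and Ndufaf5, were not analysed here, nor were the subunits encoded by mitochondrial DNA.

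All rats were male Wistar animals aged 11 weeks that had eaten high-fat feed (45% of energy from fat) over 3 weeks. After 2 of those weeks, 150 µg of plasmid DNA was electroporated into the tibialis anterior, and the muscle was taken 8 days later. The groups received pcDNA3.1-empty vector, pcDNA3.1-CMV-Plin5 (OXPAT) or pENTR-CMV-Plin2 (ADRP). Both inserts were driven by the CMV promoter, which is known to be active in many cell types; the cells that expressed them were not measured here. The Plin2 plasmid differs from the other plasmids in backbone as well as insert. Equal amounts of RNA from 6 rats were pooled into 1 array per group. No spread between animals could therefore be measured, none of the differences below has a significance test, and every value is a single reading on the log2 scale of robust multi-array average (RMA) levels. Precision is limited by this number of arrays.

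The labels were first set against the introduced genes. Plin2 stood at 9.99 with empty vector, 10.71 with Plin2 and 10.08 with Plin5. Plin5 stood at 7.52, 6.79 and 8.30 in the same order, so each gene was highest on its own array. As a label check this is weak. Plin2 was 1.64-fold higher on its array, where 6.73% of all genes were higher by at least 1.5-fold. The order of Plin5 was that of 13.1% of all genes. Plasmid and native transcripts were not told apart here. Of 10 skeletal muscle fibre genes 9 were measured, all among the brightest signals (means from 12.84 to 14.03), while 4 of 5 adipocyte markers had exactly equal values on all 3 arrays, with means of the list no higher than 6.54. All 37 complex I genes lay at or above the 25th percentile of mean signal over all genes (5.34), and 32 lay at or above the 75th percentile (8.92).

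Complex I takes electrons from NADH through a flavin and a chain of iron-sulfur clusters in an arm that reaches into the matrix, passes them to ubiquinone, and couples this to proton pumping in an arm within the membrane. A core of subunits shared with bacteria does the chemistry, and many accessory subunits surround it. Assembly factors of the Ndufaf family guide the modules together and are absent from the finished enzyme. In muscle the complex is most abundant in oxidative fibres.

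All 37 complex I genes were lower on the Plin2 array than on the empty vector array, against 26.7% of all genes. All 37 were also lower there than on the Plin5 array, against 27.6%. On the Plin5 array 35 of 37 were above the empty vector, against 22.1% of all genes. The order Plin5 above empty vector above Plin2 held for 33 of 34 subunits and 2 of 3 assembly factors, against 13.1% of all genes and 30.3% of genes at or above the 75th percentile of signal (called bright genes below). The step down on the Plin2 array was the larger of the steps. Subunits were lower there than on the empty vector array by a median of 0.63 log2 units (difference −0.63, 1.54-fold), and higher on the Plin5 array by a median of 0.11 (1.08-fold). The median difference over all genes was 0.00 in each comparison. Many genes had exactly equal deposited values on a pair of arrays (7226 of 14506 for Plin5 and empty vector, 6110 for Plin2 and empty vector, 5779 for Plin5 and Plin2). Whether their expression was equal was not tested.

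**Figure D1:**
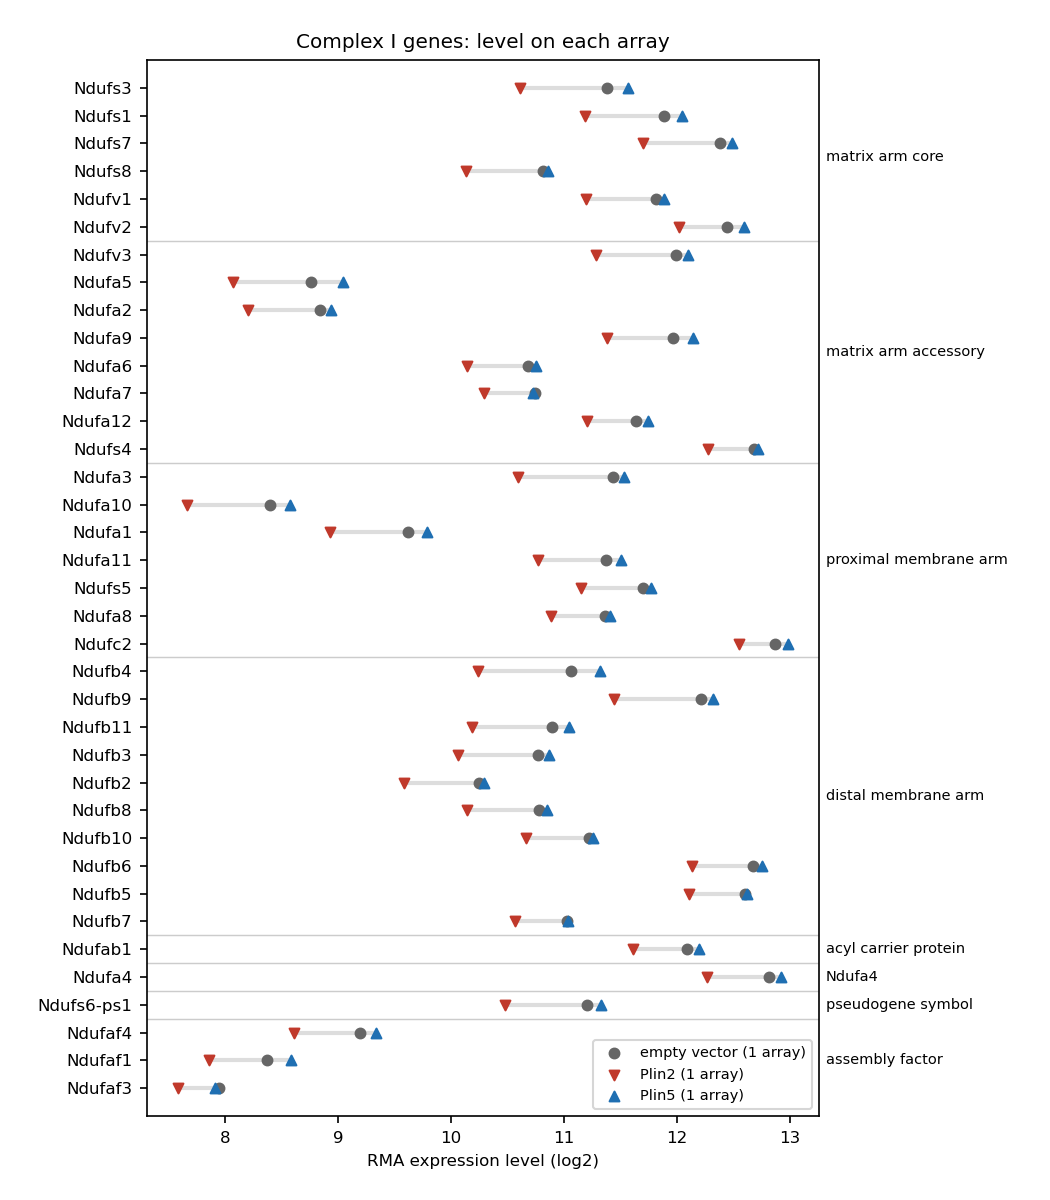
Expression level (RMA, log2) of each complex I gene on the horizontal axis, with 1 marker for each of the 3 arrays (grey circle, empty vector; red downward triangle, Plin2; blue upward triangle, Plin5) and genes grouped by their place in the complex. The red marker is the leftmost for all 37 genes, and the blue marker is the rightmost for 35; levels of different genes are not comparable with each other.

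The genes at the ends of this pattern were Ndufb4, an accessory subunit of the distal membrane arm, and Ndufa5, an accessory subunit of the matrix arm. Ndufb4 read 11.06 with empty vector, 10.24 with Plin2 and 11.32 with Plin5, and its gap of 1.08 (2.11-fold) between the Plin5 and Plin2 arrays was the widest of the 37 in the deposited values and after centring, while Ndufa5 had the widest after quantile normalization (1.06) and loess (1.07). Ndufa5 read 8.76, 8.07 and 9.04, and its difference of 0.28 (1.21-fold) was the highest on the Plin5 array against the empty vector among the probe sets used. The dimmer Ndufb4 probe set, not used here, gave 0.33, so this rank depends on the choice of probe set. The exceptions to the order were Ndufa7, an accessory subunit of the matrix arm, and Ndufaf3, which works with Ndufaf4 on the ubiquinone-binding module. Ndufa7 read 10.74, 10.29 and 10.73, and Ndufaf3 read 7.94, 7.58 and 7.91. Their differences on the Plin5 array (−0.01 and −0.03) were so close to 0 that both turned positive once the arrays had been centred to a common median (0.02 and 0.01) and after a loess correction for level (0.01 and 0.01), while quantile normalization gave −0.03 and 0.02.

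The promoters of these genes are shown because the genes mark the extremes and the exceptions, together with that of Ndufaf4, the partner of Ndufaf3. Each line gives 250 bases before to 50 bases after the RefSeq gene start on build GRCr8, 5′ to 3′ on the strand of the gene; capitals mark matches to the motifs named in the next paragraph. The windows are Ndufb4 at chr11:76568928-76569227 (plus strand), Ndufa5 at chr4:53971186-53971485 (minus strand), Ndufa7 at chr7:15311196-15311495 (plus strand), Ndufaf3 at chr8:118141674-118141973 (minus strand) and Ndufaf4 at chr5:43401545-43401844 (plus strand).
Ndufb4: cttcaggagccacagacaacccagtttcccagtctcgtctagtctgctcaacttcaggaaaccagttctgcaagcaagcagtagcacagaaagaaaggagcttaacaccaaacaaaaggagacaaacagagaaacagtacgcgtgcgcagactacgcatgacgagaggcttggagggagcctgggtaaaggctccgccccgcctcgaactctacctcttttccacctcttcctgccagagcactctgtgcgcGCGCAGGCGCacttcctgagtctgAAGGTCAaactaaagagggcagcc
Ndufa5: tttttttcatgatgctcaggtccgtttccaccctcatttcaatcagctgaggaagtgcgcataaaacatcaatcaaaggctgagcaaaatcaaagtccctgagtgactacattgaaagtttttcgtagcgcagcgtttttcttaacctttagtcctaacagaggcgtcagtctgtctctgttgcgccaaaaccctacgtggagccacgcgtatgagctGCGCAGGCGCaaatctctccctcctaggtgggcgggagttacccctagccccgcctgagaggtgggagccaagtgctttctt
Ndufa7: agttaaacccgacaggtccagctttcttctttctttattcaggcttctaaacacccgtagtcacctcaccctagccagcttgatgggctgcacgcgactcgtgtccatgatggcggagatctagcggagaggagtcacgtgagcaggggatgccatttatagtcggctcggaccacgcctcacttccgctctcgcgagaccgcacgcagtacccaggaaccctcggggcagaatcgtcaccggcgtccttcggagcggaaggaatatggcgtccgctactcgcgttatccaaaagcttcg
Ndufaf3: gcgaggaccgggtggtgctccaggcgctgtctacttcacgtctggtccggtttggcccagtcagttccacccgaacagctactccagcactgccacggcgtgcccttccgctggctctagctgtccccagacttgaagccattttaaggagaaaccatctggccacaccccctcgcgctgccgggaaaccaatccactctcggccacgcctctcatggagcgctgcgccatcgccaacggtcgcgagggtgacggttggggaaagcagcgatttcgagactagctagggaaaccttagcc
Ndufaf4: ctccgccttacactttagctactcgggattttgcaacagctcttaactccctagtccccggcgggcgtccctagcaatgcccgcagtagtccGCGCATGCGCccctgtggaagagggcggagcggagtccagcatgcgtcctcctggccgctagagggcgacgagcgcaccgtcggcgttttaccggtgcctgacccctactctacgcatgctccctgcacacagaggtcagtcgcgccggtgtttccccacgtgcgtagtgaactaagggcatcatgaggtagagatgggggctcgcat

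Motifs of factors known for nuclear genes of mitochondria were searched on both strands. RefSeq promoters were found for 34 of the 37 genes (not for Ndufa8, Ndufb9 and Ndufs6-ps1) and for 11950 genes of the array. The element of the nuclear respiratory factor Nrf1 (GCGCANGCGC) was present in 7 of 34 complex I promoters (Ndufa5, Ndufa11, Ndufa12, Ndufaf4, Ndufb4, Ndufs5 and Ndufv3) and in 7.32% of all promoters. The YY1 element (AAGATGGC) was present in 7 of 34 (Ndufa2, Ndufa3, Ndufa6, Ndufa9, Ndufb8, Ndufs4 and Ndufs7) and in 4.21% of all. The core bound by GABP and other ETS factors (CCGGAAG) was also in 7 of 34, against 12.9%. The half-site of oestrogen-related receptors (AAGGTCA) was in 3 of 34, against 3.40%, and the longer element that contains it (TCAAGGTCA) in 0 of 34, against 0.234%. In Ndufb4 the Nrf1 element starts at base 2 after the gene start and the half-site at base 26; in Ndufa5 the Nrf1 element starts 32 bases before the gene start. The Ndufa7 and Ndufaf3 windows held no match, as did 14 of the 34 windows in all. At least 1 of these motifs was in the other 20, against 24.3% of all promoters. A match describes letters only, and binding was not measured here.

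Setting Plin5 against empty vector asked whether the droplet protein Plin5 goes with oxidative gene expression. On the Plin5 array 33 of 34 subunits were above the empty vector, where 22.1% of all genes and 36.9% of bright genes were. These shares are held down by equal values: 3204 genes were above, 4076 below and 7226 equal, while no complex I gene was equal. Subunit differences ran from −0.01 (Ndufa7) to 0.28 (Ndufa5). They were small: in the probe sets used, 1 subunit (Ndufa5) reached 1.2-fold, a limit that 1.33% of all genes passed upward. The dimmer Ndufb4 probe set (0.33) also passed 1.2-fold. In the probe sets used, 0 of 37 complex I genes reached 1.5-fold, which 0.165% of all genes did.

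In the matrix arm, the core subunits all read higher on the Plin5 array, with a median difference of 0.13 over 6 genes. Ndufs3, a core subunit close to the ubiquinone site, had the highest difference among them (0.19), from 11.38 to 11.57. Ndufs8, which carries iron-sulfur clusters towards ubiquinone, had the lowest (0.05), from 10.81 to 10.86. Ndufs1, the largest core subunit and a carrier of several clusters, read 11.88 with empty vector and 12.05 with Plin5. Ndufv1, which binds the flavin and NADH, read 11.81 and 11.88, and its neighbour Ndufv2 read 12.45 and 12.60.

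Accessory subunits of the matrix arm were more uneven on the Plin5 array, with a median of 0.10 over 8 genes. Beside Ndufa5, the next highest was Ndufa9 (0.17), which sits beside the ubiquinone site and binds a nucleotide cofactor. Ndufs4, a subunit often mutated in Leigh syndrome, differed by 0.04, and Ndufa7 was the gene below the empty vector. Between them lay Ndufa6 (0.07), Ndufa2 (0.09), Ndufa12 (0.11) and Ndufv3 (0.11).

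The membrane arm gave a similar picture. The proximal part had a median of 0.12 over 7 genes, from 0.05 for Ndufa8, which faces the intermembrane space, to 0.18 for Ndufa10, a subunit with a nucleoside-kinase fold on the matrix face. The distal part had a median of 0.08 over 10 genes. Apart from Ndufb4 (0.25) its highest member was Ndufb11 (0.14), and its lowest were Ndufb7 (0.01) and Ndufb5 (0.01). Ndufab1, the mitochondrial acyl carrier protein that is also needed for fatty acid and lipoic acid synthesis, differed by 0.11, and Ndufa4, now assigned to cytochrome c oxidase, by 0.10.

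**Figure D2:**
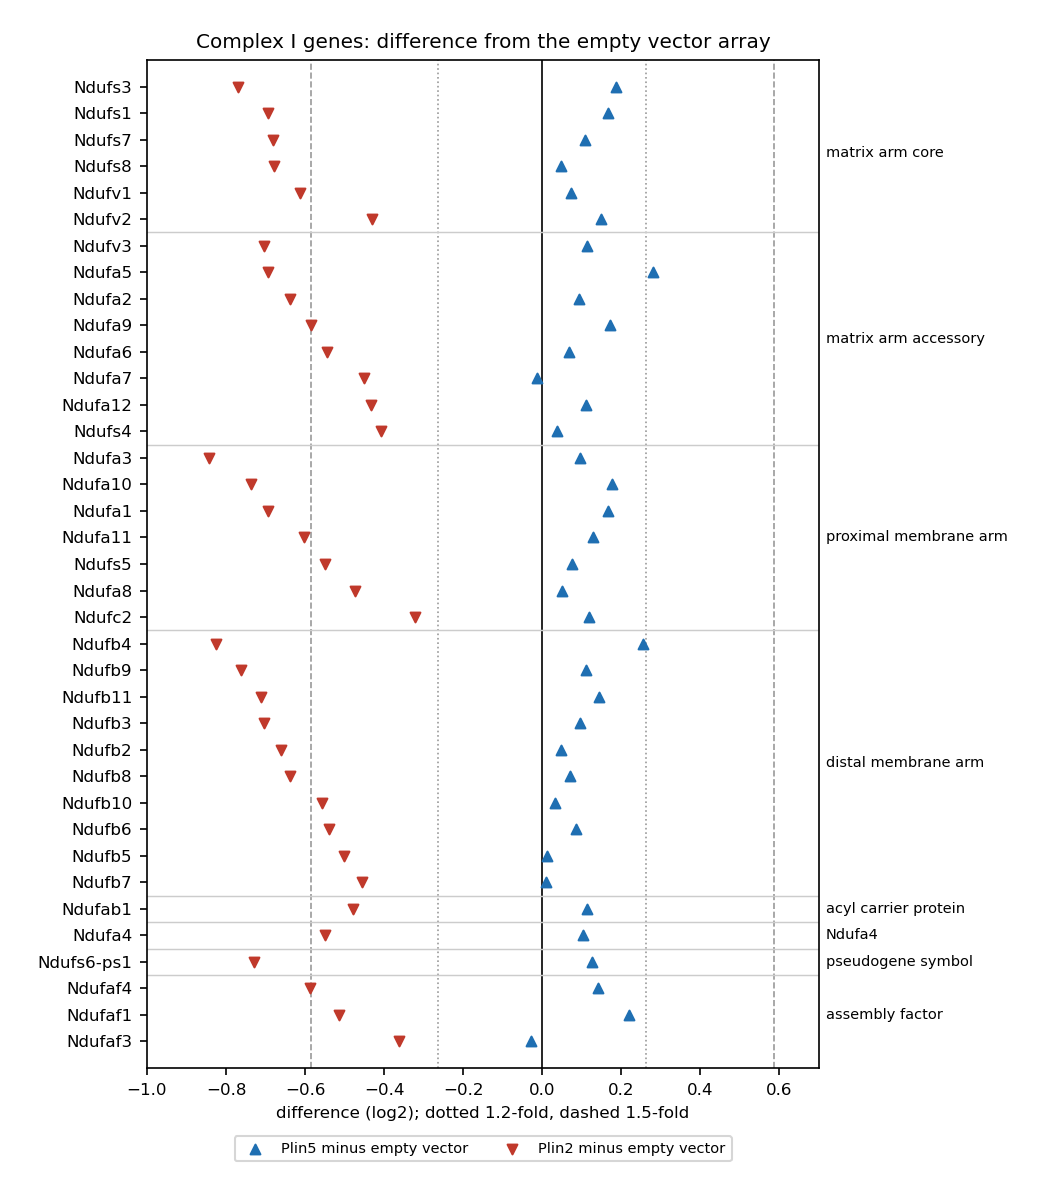
Difference of each complex I gene from the empty vector array (log2, horizontal axis) on the Plin5 array (blue) and the Plin2 array (red), with dotted lines at 1.2-fold and dashed lines at 1.5-fold in each direction. All red markers lie beyond the lower 1.2-fold line and 20 of 37 beyond the lower 1.5-fold line; 1 blue marker, Ndufa5, lies beyond the upper 1.2-fold line. Both sets of differences share the empty vector array.

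Plin2, another droplet protein, was set against the same control array. All 34 subunits were lower on the Plin2 array by at least 1.2-fold, against 11.9% of all genes and 28.2% of bright genes. By at least 1.5-fold 19 of 34 were lower, against 4.36% of all genes and 11.1% of bright genes. The differences ran from −0.84 (Ndufa3) to −0.32 (Ndufc2). None of the 34 was lower by 2-fold.

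Core subunits of the matrix arm had a median difference of −0.68, and 5 of 6 passed 1.5-fold. Ndufs3 read 11.38 with empty vector and 10.61 with Plin2 (−0.77). Ndufs7, whose cluster hands electrons to ubiquinone, read 12.38 and 11.70 (−0.68). Ndufv2 was the exception at 12.45 and 12.02 (−0.43), although Ndufv1, beside it in the enzyme, differed by −0.61. The accessory subunits of this arm had a median of −0.56 with 3 of 8 past 1.5-fold: Ndufv3 (−0.70), Ndufa5 (−0.69) and Ndufa2 (−0.64). The smallest differences of the arm belonged to Ndufs4 (−0.41), Ndufa12 (−0.43) and Ndufa7 (−0.45).

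The proximal membrane arm held both extremes of the whole set in the deposited values; after quantile normalization and loess the lowest was Ndufa10 (−0.82 and −0.81), of the same part. Ndufa3, a small subunit anchored by a membrane helix, read 11.43 with empty vector and 10.59 with Plin2, which gives −0.84 (1.79-fold lower). Ndufc2 read 12.87 and 12.55, which gives −0.32. The remaining genes of that part lay between −0.74 for Ndufa10 and −0.47 for Ndufa8, with Ndufa1 at −0.69, Ndufa11 at −0.60 and Ndufs5 at −0.55. Ndufc2 was also the brightest of the 37 probe sets, and its mean of 12.80 lay closer to the highest gene mean on the arrays (14.03) than any other member; the part of this in its value was not tested.

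In the distal membrane arm the median was −0.65, and 6 of 10 genes passed 1.5-fold. Ndufb4 (−0.83) was followed by Ndufb9 (−0.76), a subunit that docks an acyl carrier protein, Ndufb11 (−0.71) and Ndufb3 (−0.71). Ndufb2 (−0.66) and Ndufb8 (−0.64), the latter a common antibody target for assembled complex I, also passed. Ndufb10 (−0.56), Ndufb6 (−0.54), Ndufb5 (−0.50) and Ndufb7 (−0.46) did not. Ndufab1 differed by −0.48 and Ndufa4 by −0.55. The 4 structural parts of the complex thus had medians between −0.68 and −0.56, a narrower interval than the range of genes within any of them.

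A direct comparison of the Plin5 and Plin2 arrays reads the same 3 values again and adds no independent measurement. All 37 genes were higher on the Plin5 array, where 27.6% of all genes were. All 37 were also higher by at least 1.2-fold, against 12.8% of all genes, and 28 of 37 by at least 1.5-fold, against 5.40% of all genes and 13.6% of bright genes. Subunits had a median gap of 0.72 (1.64-fold), from 0.44 for Ndufa7 to 1.08 for Ndufb4. Most of each gap lay between the empty vector and Plin2 arrays. That share had a median of 86.4% over the 37 genes and ran from 70.2% for Ndufaf1 to 108% for Ndufaf3, which read lower on the Plin5 array than on the empty vector array. Centring each array on its median gene shifted the median of all genes by 0.12 in this comparison and raised the subunit median to 0.84.

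Assembly factors were compared with subunits over the same arrays. Ndufaf1, part of the complex that assembles the membrane arm, read 8.37 with empty vector, 7.85 with Plin2 and 8.59 with Plin5. Ndufaf4 read 9.20, 8.61 and 9.34. For both genes, as for nearly all subunits, the Plin2 value was the lowest and the Plin5 value the highest. Ndufaf3, with the values given above, had a gap of 0.34 between the Plin5 and Plin2 arrays, the smallest of all 37 genes in the deposited values and after centring. After quantile normalization and loess its gap was 0.46 and 0.47, and the smallest was that of Ndufc2 (0.30 and 0.27).

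With 3 genes, the assembly factors had a median of 0.14 on the Plin5 array and −0.51 on the Plin2 array. Subunits stood at 0.11 and −0.63. The subunit median was thus lower than that of the assembly factors by 0.03 on the Plin5 array and by 0.11 on the Plin2 array (differences −0.03 and −0.11). Apart from Ndufaf3 on the Plin5 array (−0.03, below the lowest subunit at −0.01), the assembly factors lay inside the range of the subunits in both comparisons. The Plin2 contrast depended on scaling, since the gap was −0.013 after quantile normalization and turned to 0.070 after the loess correction for level. By at least 1.2-fold 3 of 3 assembly factors were lower on the Plin2 array, against 11.9% of all genes, and by 1.5-fold 1 of 3 was, Ndufaf4, against 4.36%. The assembly factor signals were dimmer: 1 of 3 lay among the bright genes, against 31 of 34 subunits. The 3 subunits outside them, Ndufa2, Ndufa5 and Ndufa10, differed by −0.64, −0.69 and −0.74 on the Plin2 array.

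A list of 14 other complex I assembly factors, whose symbols do not begin with Ndufaf, had 9 measured genes. Their median was 0.09 on the Plin5 array and −0.38 on the Plin2 array. On the Plin2 array 8 of 9 were at least 1.2-fold lower (11.9% of all genes) and 2 of 9 at least 1.5-fold lower (4.36%). Ecsit, which works with Ndufaf1 in membrane arm assembly, read 10.63 with empty vector, 9.83 with Plin2 and 10.81 with Plin5. Tmem126a read 9.62, 8.88 and 9.80. Acad9, another partner of Ndufaf1, had the value 8.49 on all 3 arrays, and Tmem126b, of the same assembly complex, was lower than the empty vector on both the Plin2 (−0.37) and Plin5 (−0.14) arrays. Tmem186, also of that complex, read 7.95, 7.67 and 7.99. Exactly equal values, as for Acad9, were found for 36.1% of all genes. With these 9 genes added, the 12 assembly factors had a median of −0.42 on the Plin2 array and 0.12 on the Plin5 array, and the subunit median lay 0.20 below theirs on the Plin2 array (difference −0.20). That wider contrast was computed on the deposited values only, so its dependence on scaling was not tested.

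The other respiratory complexes give the scale for these values. Their 36 measured subunits had a median of 0.10 on the Plin5 array and −0.48 on the Plin2 array, beside 0.11 and −0.63 for complex I. On the Plin2 array 12 of 36 were lower by 1.5-fold, against 19 of 34 complex I subunits, and 1 was higher, Cox8a (0.26) of cytochrome c oxidase. No complex I gene was higher. By complex, the Plin2 medians were −0.59 for complex II (4 genes), −0.53 for complex III (7), −0.51 for complex IV (10) and −0.44 for ATP synthase (15), so complex I had the lowest of the 5, with intervals of genes that overlap. This order holds for the deposited values. After the loess correction for level the complex I subunit median was −0.52, and the other complexes were not recomputed. Whether the complexes differ was not tested, since genes of 1 array pair are not replicates.

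**Figure D3:**
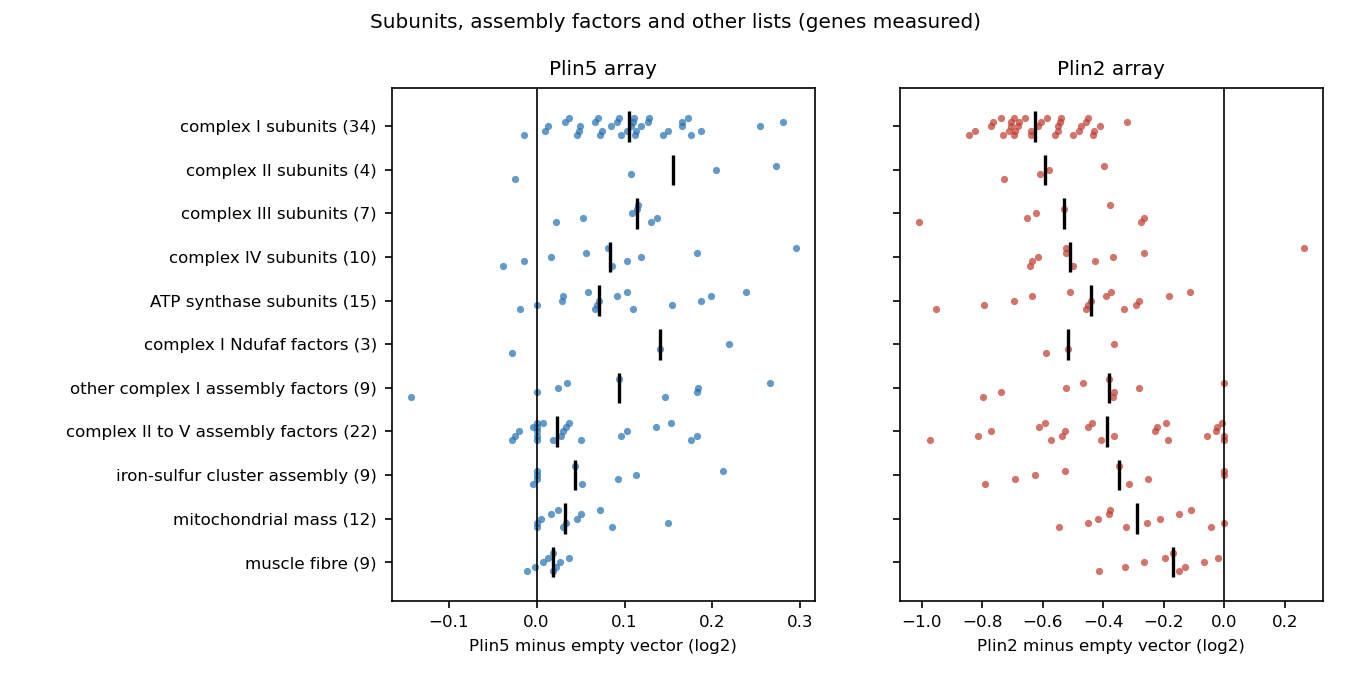
Differences from the empty vector array (log2, horizontal axes) on the Plin5 array (left) and the Plin2 array (right), with 1 point per gene, a black bar at the median of each list and the number of measured genes in brackets; the axes of the panels differ in scale. Complex I subunits lie between −0.84 and −0.32 on the Plin2 array, while assembly factors of complexes II to V extend from −0.97 to 0.00.

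Assembly factors of complexes II to V stood above their own subunits on the Plin2 array, with a median of −0.39 over 22 genes against −0.48. Of these 22, 12 were lower by at least 1.2-fold, against 11.9% of all genes, and 2 (Sco1 and Coa4) had equal values on all arrays. On the Plin5 array they had a median of 0.02 against 0.10 for the subunits. Genes that build iron-sulfur clusters, which complex I needs in larger number than the other complexes, had a median of 0.04 on the Plin5 array and −0.35 on the Plin2 array over 9 genes; Glrx5 (−0.79) and Nfs1 (−0.69) were the lowest, and Nfu1 and Hscb were equal on all arrays. A list of 12 general mitochondrial genes, including citrate synthase, porins and import channels, had a median of 0.03 on the Plin5 array and −0.29 on the Plin2 array. On the Plin2 array 11 of 12 were below the empty vector. By at least 1.2-fold 6 of 12 were lower, against 11.9% of all genes, and by 1.5-fold 0 of 12, against 4.36%.

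**Figure D4:**
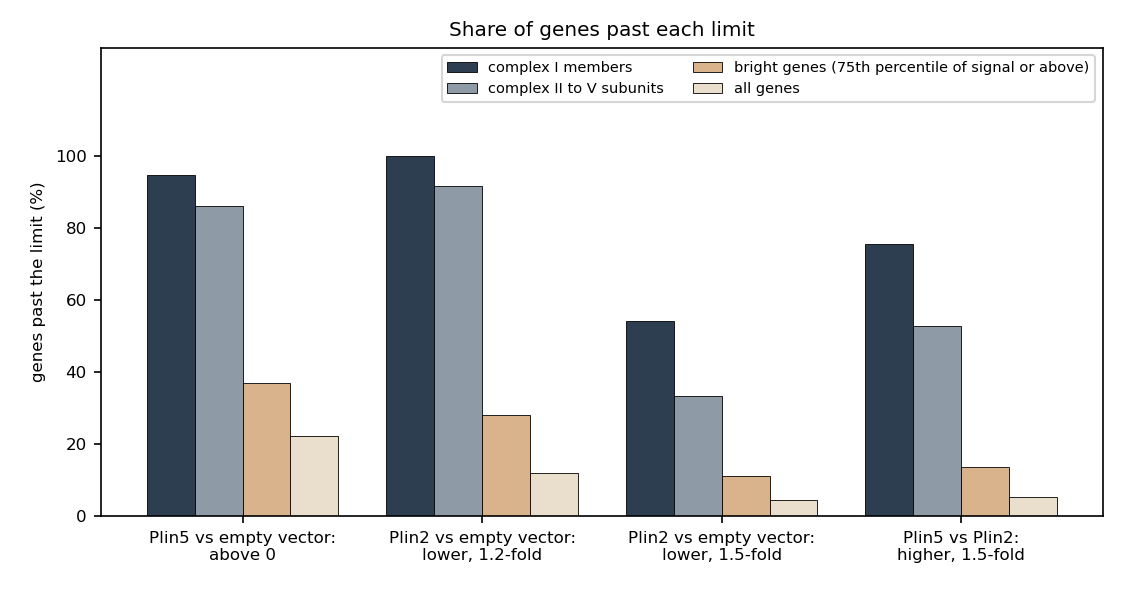
Share of genes (percent, vertical axis) past 4 limits: above the empty vector on the Plin5 array, lower than the empty vector by at least 1.2-fold and by at least 1.5-fold on the Plin2 array, and higher by at least 1.5-fold on the Plin5 than on the Plin2 array. Bars stand for the 37 complex I genes, the 36 subunits of complexes II to V, bright genes (75th percentile of signal or above) and all 14506 genes. Complex I genes reach 94.6%, 100%, 54.1% and 75.7%, against 22.1%, 11.9%, 4.36% and 5.40% of all genes.

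Genes of other cells and of fibre type also differed between these arrays. On the Plin2 array the macrophage markers had a median of 1.05 and 12 of 12 passed 1.2-fold upward, as 15.0% of all genes did; their summed linear level was 13407 with empty vector, 27961 with Plin2 and 10748 with Plin5. None of those markers was near the lowest signals, with means from 7.93 to 12.29. Markers of T and natural killer cells were also higher there (8 of 8, median 1.18; summed level 4600, 9398 and 4404 in the same order), as were genes of regenerating fibres (4 of 4, median 0.89; summed level 3435, 6768 and 2703). Slow fibre genes had a median of −0.70 on the Plin2 array, with 5 of 8 below the empty vector, 2 above (Atp2a2 at 0.03 and Tnni1 at 0.01) and 1 equal (Tpm3). On the Plin5 array their median was 0.29, with 7 of 8 above; the slow myosin Myh7 differed by −1.75 on the Plin2 array and 0.44 on the Plin5 array. Their summed level was 16997, 10400 and 19976. General fibre markers differed by a median of −0.17 and 0.02, with 3 of 9 lower by at least 1.2-fold on the Plin2 array and a summed level of 114723, 101969 and 115858. On the Plin5 array the tendon markers had a median of −1.17, with 5 of 5 below the empty vector and a summed level of 2996 with empty vector, 2384 with Plin2 and 1297 with Plin5. The macrophage markers had a median of −0.53 there, with 10 of 12 below, and those of regenerating fibres −0.51, with 4 of 4 below. Over all genes, 28.1% were below and 22.1% above the empty vector on the Plin5 array. On the Plin2 array 26.7% were below, 31.1% above and 11.9% lower by at least 1.2-fold. Fibroblast markers had medians of −0.12 on the Plin5 array and 0.14 on the Plin2 array, and endothelial markers 0.03 and 0.00. The part of these cell and fibre markers in the complex I values was not tested. In whole muscle, fewer fibres and less RNA per fibre cannot be told apart.

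Of a list of 10 regulators of mitochondrial genes 9 were measured, and most were lower on the Plin2 array (median −0.60). There 6 of 9 were below the empty vector, each by at least 1.2-fold, against 11.9% of all genes. The 2 above it (Nrf1 and Yy1) were under 1.2-fold, and 1 was equal. On the Plin5 array the median was 0.13, with 7 above, 1 below and 1 equal. Perm1 read 9.80 with empty vector, 7.83 with Plin2 and 10.21 with Plin5, and the coactivator gene Ppargc1a read 10.15, 9.39 and 10.42, in the order shown by complex I. Of the genes for factors whose motifs are given above, Nrf1 read 7.73, 7.87 and 7.71, Yy1 read 9.24, 9.33 and 9.24, and Gabpa read 8.49 on each. The oestrogen-related receptor genes Esrra (8.34, 7.74 and 8.54) and Esrrg (8.02, 6.91 and 8.26) were in the order shown by complex I. So were Tfam (8.47, 8.11 and 8.60) and Ppargc1b (9.848, 9.244 and 9.855).

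Some readings rest on more than 1 probe set or on copies of a gene. The Ndufb4 probe sets gave −0.83 and −0.83 on the Plin2 array, and 0.25 and 0.33 on the Plin5 array. Both Ndufs5 probe sets were lower on the Plin2 array (−0.55 and −0.48). The Ndufv3 probe sets did not match: the brighter one differed by −0.70 and 0.11, and the dimmer one by −0.22 and 0.00, for a gene known to have a long and a short isoform. Ndufs6-ps1, at 11.20 with empty vector, 10.47 with Plin2 and 11.33 with Plin5, is listed by RefSeq as a pseudogene that once carried the symbol Ndufs6, so the transcript behind it is uncertain; its second probe set gave −0.73 and 0.09. RefSeq lists pseudogene copies for 15 of the 37 genes, among them 7 copies for Ndufb4 and 4 for Ndufa5. How far such copies add to a probe set's signal is unknown.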

How the data were processed

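Per the labels' protocols, pools of RNA from 6 rats (integrity number over 8) were labelled from 100 ng for 1 array a group. The deposited values are log2 expression levels made by the authors with RMA, per the submitters' processing notes, a method that in general corrects background, normalizes quantiles and summarises probes; its settings and version, the annotation and the build were not given in the sources used here. The log base is not stated, and log2 was taken because RMA returns it and the range of values fits.

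The platform annotation names 1 gene for 15310 of 29214 probe sets, which were used; 323 naming several genes (1 with a complex I symbol) and 13581 it does not list were dropped. The probe set with the highest mean per symbol was kept, with no filter on dim genes. All 37 members were found in the RefSeq table (GRCr8) by Entrez number, with 0 symbols to update. Differences were subtracted log2 values, counted at 1.2-fold and 1.5-fold; with 1 array per group there is no test. Values were equal on all 3 arrays for 36.1% of genes and for 0 of 37 members. The functions were checked on simulated shifts. Named genes were the introduced genes, every Ndufaf gene, extremes of each structural class, members past 1.5-fold or against their group, and members with 2 probe sets; other members and the genes of other lists beyond 3 extremes were named after their values were seen. The members and lists were chosen with earlier results of these data known; the motif letters and the 5 printed promoters were chosen after the values were seen. Alternatives covered genes tested, probe set choice, centring, quantile normalization, loess (span 0.3), equal values, membership, the mean and a 2-fold limit. Computation used numpy 2.4.6, pandas 2.3.3, statsmodels 0.14.6 and matplotlib 3.10.9 under Python 3.11.15.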

Additional observations from a re-analysis of the deposited data

How the results depend on the processing

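Of 354 values from 13 alternative settings over 33 results, 317 stayed within 0.05 log2 units of the reported value (for counts, within 1.5 times), 33 moved further and 4 changed sign. The direction of the subunit medians and of the assembly factor medians was the same in every setting run. Centring the arrays gave subunit medians of −0.71 (Plin2 less empty vector) and 0.84 (Plin5 less Plin2), assembly factor medians of −0.60 and 0.85, and 2 assembly factors lower by 1.5-fold on the Plin2 array. Loess gave −0.52 and 0.65 for subunits, −0.59 and 0.80 for assembly factors, and 2 such factors; quantile normalization gave −0.59 and 0.81 for assembly factors, and 2. The subunit median less that of the assembly factors was −0.013 (quantile) and 0.070 (loess, reversed) for Plin2 less empty vector. For Plin5 against Plin2 it was −0.01 as reported, −0.12 (quantile), −0.15 (loess), 0.00034 without Ndufa4 and Ndufab1, and 0.11 by means, so this contrast has no settled sign; the cause was not tested. By means the assembly factors stood at 0.60 in that comparison.

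Adding the 9 assembly factors of other names, chosen after seeing the data, gave medians of −0.42 (Plin2) and 0.54 (Plin5 against Plin2), contrasts of −0.20 and 0.18, and counts over 12 genes of 1 higher by 1.2-fold on the Plin5 array, 11 lower by 1.2-fold and 3 by 1.5-fold on the Plin2 array, and 10 and 6 higher in the direct comparison. The set of 12 genes was not run after centring, quantile normalization or loess. At 2-fold in place of 1.5-fold, 0 subunits and 0 assembly factors were lower on the Plin2 array, and 1 subunit and 0 assembly factors were higher on the Plin5 than on the Plin2 array. On the Plin5 array against the empty vector, 2 subunits in place of 1 passed 1.2-fold after averaging probe sets, with the dimmer probe set, after centring and after loess. Leaving out Ndufs6-ps1, also chosen after seeing the data, moved no result past these limits. No paired analysis was possible because each group has 1 array. Of the assembly factors 2 of 3, and of the subunits 3 of 34, lie under the 75th percentile of signal; whether signal limits their values was not tested.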
